A study of Homo sapiens with 132 samples.

Results

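A set of 6 RNA sequencing libraries of the gastric cancer cell line MKN1 was compared: 3 libraries of cells that received epidermal growth factor (EGF) together with the antibody cetuximab (EGF+Cet) and 3 of cells that received EGF alone, all harvested at 4 h. They were chosen by their labels (cell line MKN1, time 4 h, treatment EGF+Cet or EGF) out of 132 libraries in the series. The question of this comparison was which responses to EGF were blunted when cetuximab was present.

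The series measured the transcriptomes of gastric cancer cell lines after treatment with EGF or with drugs against receptors of the ERBB family, at 4 h and 24 h. EGF was given at 5 ng/ml and cetuximab at 1 µg/ml. Of the same line and time, 3 libraries of untreated cells and 3 of cells with cetuximab alone (Cet) served to place the levels, and the other MKN1 libraries (42 in all, also with trastuzumab and afatinib) entered the fit so that the spread was estimated from the whole line. MKN1 and Hs746T, the other line that received EGF and cetuximab, were both established from metastases of gastric carcinomas, and the study treats MKN1 as cetuximab-responsive and Hs746T as not. All groups were grown in medium with 10% serum, so that the untreated cells were not free of growth factors, and a step of serum starvation is not given in the sources used here. Each line is 1 cell line, and the labels do not say whether the numbered replicates came from separate cultures or days, so that p-values measure the spread between these libraries.

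The 6 libraries held 40917152 to 69434151 counts, with a median of 53865586. The 8 epithelial markers fixed for the check of the label (among them EPCAM, CDH1 and KRT8) summed to 19061 to 22750 CPM (counts scaled to library totals) over the 12 MKN1 libraries of untreated, EGF, EGF+Cet and Cet cells. Keratins weigh most in such a sum. In the MKN1 EGF libraries of 24 h KRT8 averaged 12035 CPM, against 23.9 CPM for EPCAM and 1.01 CPM for CDH1. The 6 leukocyte markers summed to 3.34 to 5.61 CPM, with CD68 listed at 0, the 6 fibroblast markers to 69.2 to 120 CPM and the 4 endothelial markers to 5.78 to 20.02 CPM. A 0 cannot be read as absence in these files: 2252 of 19674 protein-coding identifiers were at 0 in all MKN1 libraries, among them the tubulin gene TUBA1B, which every cell uses, and 32 genes of the lists described below, such as DUSP1, JUNB, FOSB, MMP1 and CDK2.

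EGF binds the EGF receptor (EGFR) and starts signalling through the RAS-ERK and PI3K pathways, which induce within hours transcription factors, secreted ligands, proteases and matrix genes, together with inhibitors that act back on the pathway. Cetuximab is a monoclonal antibody that binds the extracellular part of EGFR and competes with its ligands. EGFR ligands such as amphiregulin are themselves induced by receptor activity, so that epithelial tumour cells can keep their own receptor active.

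Levels are given as CPM scaled by the trimmed mean of M values (TMM). CPM is not scaled for gene length and is compared between libraries only. Log2FC values come from edgeR's quasi-likelihood test with the replicate number as a block, and p.adjust is Benjamini-Hochberg adjusted over all genes tested. A gene is called regulated where p.adjust is below 0.05 and log2FC is above 1 or below -1.

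In EGF+Cet against EGF, 56 genes were regulated lower and 9 regulated higher, 65 of 19815 genes tested (0.328%; 0.283% lower and 0.0454% higher). By p.adjust alone, 588 genes (2.97%) fell and 203 genes (1.02%) rose, with a median log2FC of -0.40 and 0.33. Each of the 65 regulated genes moved one way in its 3 numbered pairs, and in 57 of them the EGF and EGF+Cet libraries did not overlap, against 10.6% of all genes tested. The genes were called on these same libraries, so that both counts follow in part from the call and are no separate evidence. Fitted without the replicate block, 23 genes were regulated lower and 2 higher. Without the libraries of replicate 1 the counts were 33 lower and 8 higher.

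The genes that fell with cetuximab had been raised by EGF. Of the 588 genes that fell, 568 were higher in EGF than in untreated cells by p.adjust, and of the 203 that rose, 184 were lower in EGF. No gene was past p.adjust in the same direction in both comparisons. These comparisons share the 3 EGF libraries, so that a chance deviation of those libraries enters both with opposite sign.

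By the rule for named genes (protein-coding, regulated, averaging over 1 in log2 CPM and moving one way in every pair), 10 falls and 0 rises were named. AKAP12 encodes a scaffold protein of protein kinases A and C (chr6:151239999-151358557 in GRCh38). In the EGF libraries AKAP12 stood at 1120, 807 and 990 CPM, and in EGF+Cet at 427, 259 and 407 CPM. The untreated libraries held 236, 183 and 275 CPM and the Cet libraries 194, 127 and 162 CPM, so that all EGF+Cet libraries but the lowest lay between the untreated and the EGF range. The log2FC in EGF+Cet against EGF was -1.44 ± 0.13 (SE, n = 3 per group, edgeR p.adjust = 2.97e-09).

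LAMA3 (chr18:23689443-23956222) encodes the α3 chain of laminin-332, a trimer of the epithelial basement membrane. Its levels were 891, 754 and 1068 CPM with EGF and 401, 324 and 566 CPM with EGF+Cet, without overlap, and 172, 183 and 289 CPM in untreated cells. The log2FC was -1.09 ± 0.10 (edgeR p.adjust = 2.44e-09). LAMB3, the gene of the β3 chain of the same trimer, fell as well, from 175, 187 and 214 CPM to 105, 108 and 146 CPM (log2FC -0.70 ± 0.08, edgeR p.adjust = 3.20e-07). Its groups did not overlap. Integrin α2, a collagen receptor encoded by ITGA2 (chr5:52989326-53094779), went from 279, 276 and 420 CPM to 142, 118 and 235 CPM. Its log2FC was -1.02 ± 0.15 (edgeR p.adjust = 1.29e-05). ITGA6, encoding the laminin-binding integrin α6, fell by 0.44 on the log2 scale (edgeR p.adjust = 0.0152). It was past p.adjust in 3 of 9 fits that left out a replicate or a library.

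The bases before the transcription start of genes of this group are shown because LAMA3 and LAMB3 moved together, beside AKAP12 as the largest of the named falls and EGR1 as a target of serum response factor that did not pass the test. They are RefSeq sequences of GRCh38.p14, the 250 bases before an annotated start, 5′ to 3′ on the gene's strand. For LAMA3 the window (chr18:23872770-23873019, plus strand) lies inside the annotated gene, before the start of a shorter transcript. The other windows are chr1:209651375-209651624 on the minus strand for LAMB3, chr6:151239717-151239966 on the plus strand for AKAP12 and chr5:138465229-138465478 on the plus strand for EGR1. Capitals mark the AP-1 motif, TGACTCA or its reverse complement TGAGTCA, in the laminin genes, and the CArG box, the motif bound by serum response factor, in AKAP12 and EGR1.
LAMA3: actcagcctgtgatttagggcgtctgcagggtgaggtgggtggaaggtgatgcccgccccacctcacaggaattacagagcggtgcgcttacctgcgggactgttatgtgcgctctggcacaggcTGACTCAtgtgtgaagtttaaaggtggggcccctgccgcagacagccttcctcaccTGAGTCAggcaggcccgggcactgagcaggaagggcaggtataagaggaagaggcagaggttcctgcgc
LAMB3: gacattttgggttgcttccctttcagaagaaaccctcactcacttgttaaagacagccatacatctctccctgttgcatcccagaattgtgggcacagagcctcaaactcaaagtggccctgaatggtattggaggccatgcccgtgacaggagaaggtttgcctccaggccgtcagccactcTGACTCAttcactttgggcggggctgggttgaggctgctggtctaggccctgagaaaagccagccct
AKAP12: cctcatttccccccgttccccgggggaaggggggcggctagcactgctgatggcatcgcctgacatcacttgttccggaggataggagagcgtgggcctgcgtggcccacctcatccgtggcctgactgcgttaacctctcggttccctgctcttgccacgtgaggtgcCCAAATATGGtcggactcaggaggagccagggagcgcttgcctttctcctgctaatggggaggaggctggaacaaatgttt
EGR1: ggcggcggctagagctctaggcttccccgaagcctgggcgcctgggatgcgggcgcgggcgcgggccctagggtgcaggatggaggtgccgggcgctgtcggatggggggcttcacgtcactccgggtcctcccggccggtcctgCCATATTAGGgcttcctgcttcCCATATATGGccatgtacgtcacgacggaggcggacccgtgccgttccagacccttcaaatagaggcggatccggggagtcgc
LAMA3 held the AP-1 motif 125 and 69 bases before the start and LAMB3 held it 67 bases before the start, in 1 of its 3 windows. AKAP12 held a CArG box 81 bases before the start, in 1 of 3 windows, and EGR1 held CArG boxes at 105 and 83 bases. Of 35116 windows of this length, 4.20% held the AP-1 motif and 1.16% the CArG box on either strand. RefSeq windows were matched for 41 of the 65 regulated genes. Of their 61 windows 8 (13.1%) held the AP-1 motif, in DCLK1, DHRS9, DMRT2, LAMA3, LINC01629 and TNFSF14, and 3 (4.92%) held the CArG box, in AKAP12, ASB2 and KCNK3. A match describes the letters only and was not tested as a binding site.

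The other named falls were of secreted or surface proteins, a kinase, an inhibitor of Notch signalling and a gene of unassigned function. BMP6, a ligand of the bone morphogenetic protein (BMP) family, went from 41.7, 34.1 and 42.8 CPM to 17.6, 17.6 and 21.3 CPM (log2FC -1.07 ± 0.11, edgeR p.adjust = 3.00e-08). LYPD3, a membrane-anchored protein of the LY6/PLAUR family, went from 82.7, 92.8 and 88.5 CPM to 34.7, 48.2 and 44.4 CPM (-1.07 ± 0.13, edgeR p.adjust = 4.45e-07). CCL2, a chemokine that attracts monocytes, went from 33.5, 29.7 and 17.1 CPM to 13.2, 16 and 9.82 CPM (-1.03 ± 0.11, edgeR p.adjust = 6.57e-08). In each of these genes every EGF+Cet library lay below every EGF library.

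ESM1, a secreted proteoglycan, had the largest standard error of the 10 named falls. Its EGF libraries held 30.6, 32.9 and 12.5 CPM and its EGF+Cet libraries 11.9, 11.9 and 4.79 CPM, with replicate 3 lowest in both groups (log2FC -1.40 ± 0.27, edgeR p.adjust = 0.000883). DCLK1, a doublecortin-like kinase, fell from 13.0, 9.48 and 15.3 CPM to 5.16, 4.24 and 5.98 CPM (-1.29 ± 0.12, edgeR p.adjust = 1.11e-08). C6orf141 fell from 25.1, 20.2 and 32.0 CPM to 10.7, 9.63 and 18.1 CPM (-1.04 ± 0.10, edgeR p.adjust = 5.22e-09). Of the 10 named falls, 4 were not past p.adjust when the replicate block was left out, namely CCL2 (edgeR p.adjust = 0.0938), C6orf141 (0.279), ITGA2 (0.370) and ESM1 (0.488).

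NRARP, a negative regulator of Notch signalling and a target of the same pathway, returned to the untreated level. It stood at 3.99, 5.15 and 5.40 CPM in untreated cells, at 8.91, 10.7 and 13.7 CPM with EGF and at 3.80, 5.73 and 4.86 CPM with EGF+Cet. The untreated and EGF+Cet ranges overlapped, and the log2FC between them was -0.02 ± 0.10 (edgeR p.adjust = 0.981), whereas EGF+Cet against EGF gave -1.21 ± 0.09 (edgeR p.adjust = 1.84e-10). In Cet alone NRARP stood at 4.58, 5.64 and 5.63 CPM. The other Notch gene that fell was JAG1, a Notch ligand, from 55.3, 34.4 and 52.2 CPM to 33.3, 22.2 and 35.5 CPM (-0.64 ± 0.13, edgeR p.adjust = 0.00113). The other 10 of 12 Notch genes tested did not pass the test. Over all genes tested 2.97% fell.

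**Figure D1:**
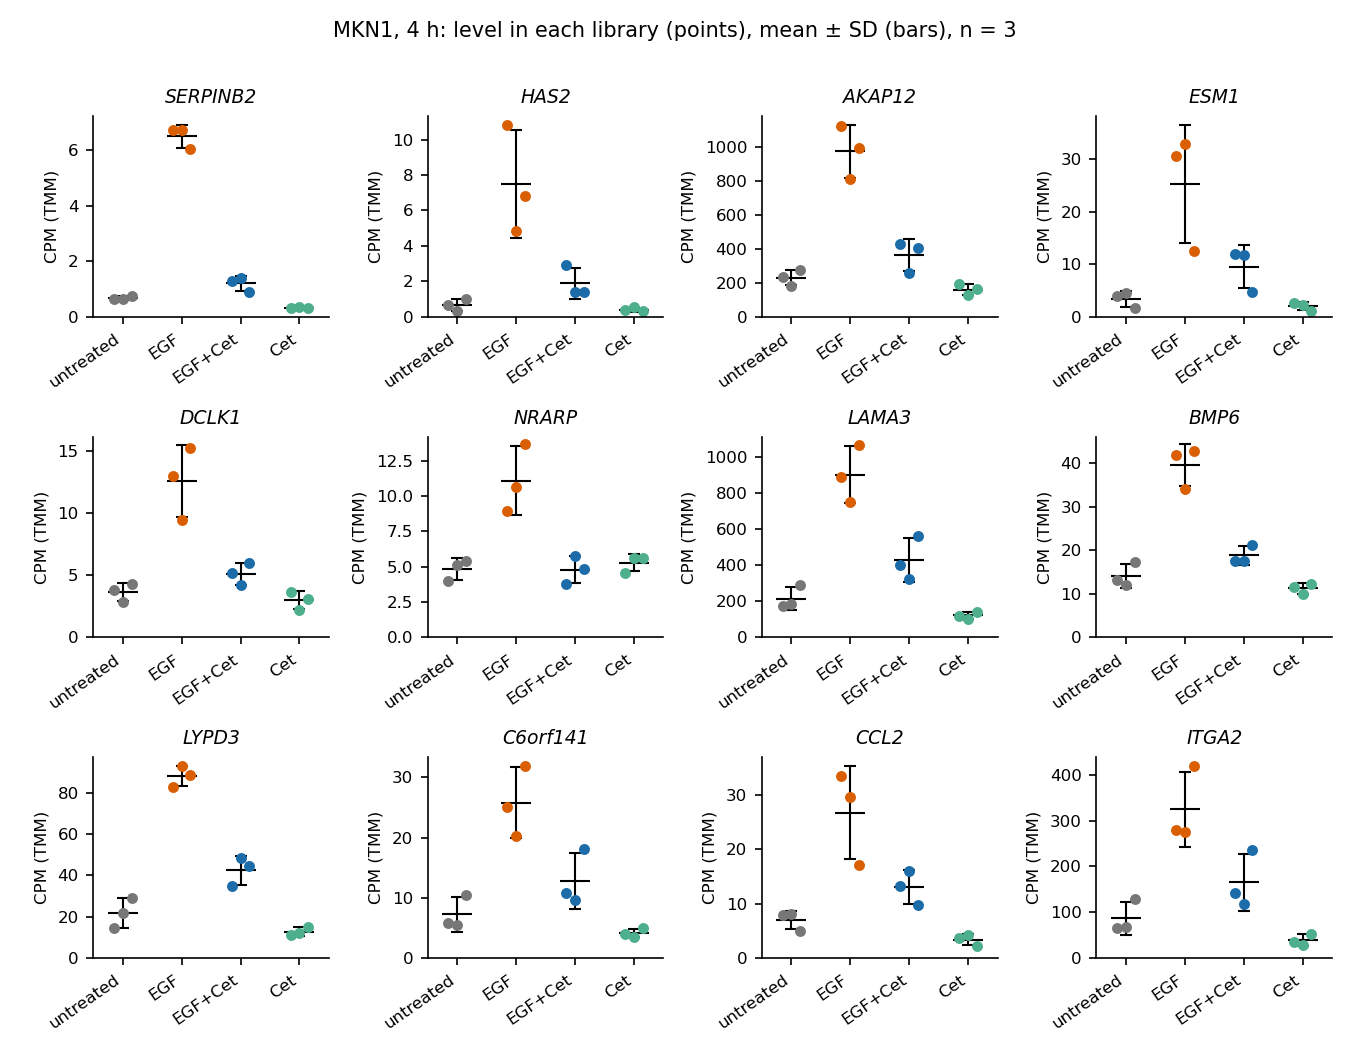
Level in CPM (TMM-scaled, linear axis from 0) of SERPINB2, HAS2 and the 10 named falls in each MKN1 library of untreated, EGF, EGF+Cet and Cet cells at 4 h. Points are libraries in the order of their replicate number and bars are mean ± SD (n = 3). In each of the 12 panels the EGF libraries lie highest and the EGF+Cet libraries lie below them.

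Below the level set for the named falls, members of the fixed lists fell as well. SERPINB2, an inhibitor of plasminogen activators, stood at 6.72, 6.75 and 6.04 CPM with EGF and at 1.31, 1.41 and 0.906 CPM with EGF+Cet, and at 0.639, 0.650 and 0.756 CPM in untreated cells. Its log2FC of -2.43 ± 0.18 (edgeR p.adjust = 7.04e-11) left EGF+Cet above the untreated level by 0.83 on the log2 scale (edgeR p.adjust = 0.0254). HAS2, a synthase of hyaluronan, stood at 10.8, 4.83 and 6.80 CPM with EGF and at 2.90, 1.39 and 1.38 CPM with EGF+Cet, a log2FC of -1.97 ± 0.23 (edgeR p.adjust = 2.89e-07). Of the 9 hyaluronan genes HAS2 was the only one that passed the test. MMP9, a gelatinase, fell from 4.80, 3.62 and 3.35 CPM to 2.13, 1.77 and 1.73 CPM (-1.07 ± 0.17, edgeR p.adjust = 4.82e-05), and ADAMTS6 was the other of 13 metalloproteinase genes that fell (-0.42, edgeR p.adjust = 0.0226). ADAMTS6 was past p.adjust in 3 of 9 fits that left out a replicate or a library. Of all genes tested 2.97% fell.

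Of 10 genes tested of the plasminogen system and of coagulation, 6 fell and none rose, against 2.97% and 1.02% of all genes tested. The lists were chosen with earlier results of these data known. Their median log2FC was -0.37, against -0.0014 over all genes tested. Besides SERPINB2 these included PLAUR, the urokinase receptor (from 114, 124 and 85.6 CPM to 74.2, 85.1 and 59.0 CPM, log2FC -0.57 ± 0.09). Tissue plasminogen activator (PLAT, -0.37), the protease-activated receptor F2RL1 (-0.47) and thrombomodulin (THBD, -0.37) fell by less. PLAT was past p.adjust in 3 of 9 fits that left out a replicate or a library. Tissue factor (F3), the starter of coagulation, did not pass the test, with 691, 636 and 522 CPM in EGF and 621, 587 and 493 CPM in EGF+Cet (-0.12 ± 0.13, edgeR p.adjust = 0.829).

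Chemokines and cytokines followed in part, in lists chosen with earlier results of these data known. Of all genes tested, 2.97% fell and 1.02% rose. Of 12 chemokine genes, 4 fell and none rose: CCL2, CXCL8 (interleukin-8, from 51.1, 53.7 and 33.0 CPM to 27.2, 30.8 and 21.1 CPM, log2FC -0.79 ± 0.12, edgeR p.adjust = 4.23e-05), CXCL3 (-0.99 ± 0.27, edgeR p.adjust = 0.0240) and CXCL5 (-1.05 ± 0.30, edgeR p.adjust = 0.0343), the last of which overlapped between groups at 0.54 to 2.03 CPM. CXCL3 and CXCL5 were each past p.adjust in 2 of 9 fits that left out a replicate or a library. CXCL1 was not past the test at -0.34 ± 0.17 (edgeR p.adjust = 0.371). Of 14 interleukins and growth factors of blood cells, 4 fell: LIF, a cytokine of the interleukin-6 family, from 72.2, 67.3 and 62.5 CPM to 40.1, 42.3 and 45.6 CPM (-0.66 ± 0.11, edgeR p.adjust = 7.58e-05), CSF2 (-0.83), IL11 (-0.60) and CSF1 (-0.50). Of 14 genes of NF-kB and its feedback, ICAM1 (-0.52), TNFAIP3 (-0.53) and NFKB1 (-0.25) fell.

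Transcription factors that fell included ETS1 (from 313, 264 and 241 CPM to 197, 148 and 150 CPM, log2FC -0.73 ± 0.08, edgeR p.adjust = 1.41e-07), ELK3 (-0.41) and ELF4 (-0.22) of 14 ETS factors, and KLF6 (from 266, 239 and 242 CPM to 176, 155 and 177 CPM, -0.56 ± 0.07, edgeR p.adjust = 3.57e-07), KLF7 (-0.62) and KLF5 (-0.33) of 14 KLF factors. Of 4 mRNA decay factors tested, ZFP36L1 and ZFP36L2 fell, by 0.33 and 0.32 on the log2 scale. They were past p.adjust in 4 and 2 of 9 fits that left out a replicate or a library. Over all genes tested 2.97% fell. CDKN1A, the inhibitor p21 of cyclin-dependent kinases, fell from 136, 156 and 185 CPM to 63.8, 78.5 and 105 CPM (-0.97 ± 0.08, edgeR p.adjust = 4.60e-10), just short of the fold limit. Its groups did not overlap.

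Ligands and inhibitors of the EGFR pathway were examined next. EGF had raised 4 of 7 EGFR ligand genes past the limits, namely AREG, HBEGF, EREG and TGFA. With cetuximab 2 of 7 fell, against 2.97% of all genes tested. Amphiregulin (AREG) stood at 87.8, 74.9 and 134 CPM with EGF, at 38.8, 43.9 and 77.4 CPM with EGF+Cet and at 3.82, 6.12 and 6.16 CPM with Cet alone (EGF+Cet against EGF -0.92 ± 0.17, edgeR p.adjust = 0.000679). The AREG groups overlapped, with replicate 3 highest in both. TGFA, encoding transforming growth factor α, went from 83.0, 78.8 and 98.2 CPM to 57.7, 54.8 and 68.2 CPM (-0.52 ± 0.07, edgeR p.adjust = 1.68e-06). HBEGF was at -0.48 ± 0.21 (edgeR p.adjust = 0.278) and EREG at -0.42 ± 0.23 (edgeR p.adjust = 0.451), neither past the test.

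Of the feedback inhibitors, SPRY2, an inhibitor of RAS-ERK signalling, went from 39.0, 37.8 and 37.9 CPM to 24.3, 24.6 and 26.0 CPM (log2FC -0.61 ± 0.11, edgeR p.adjust = 0.000369), between the untreated and EGF levels. ERRFI1, which binds and inhibits the EGFR kinase domain, went from 238, 207 and 237 CPM to 138, 125 and 165 CPM (-0.67 ± 0.18, edgeR p.adjust = 0.0201). In the 9 fits that left out a replicate or a library, ERRFI1 was past p.adjust in 2 and SPRY2 in all 9. Of 9 MAP kinase phosphatases tested, DUSP10 (-0.44) and DUSP7 (-0.37) fell and DUSP8 rose (0.31), against 2.97% and 1.02% of all genes tested. In the same 9 fits DUSP10 was past p.adjust in 7, DUSP8 in 3 and DUSP7 in 1. EGFR itself was at 679, 576 and 622 CPM with EGF and at 645, 433 and 543 CPM with EGF+Cet, overlapping and not past the test (-0.22 ± 0.08, edgeR p.adjust = 0.164).

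Several targets of ERK signalling were not past the test in EGF+Cet against EGF. EGF against untreated had raised DUSP6, SPRY4, PHLDA1 and FOSL1 by p.adjust, and EGR1 was at 0.63 there (edgeR p.adjust = 0.106). DUSP6, the phosphatase of ERK, stood at 106, 93.3 and 140 CPM with EGF and at 74.8, 67.7 and 111 CPM with EGF+Cet, against 28, 24.3 and 42.5 CPM untreated and 4.66, 6.94 and 5.75 CPM with Cet alone. The EGF and EGF+Cet groups overlapped, while each pair was lower with cetuximab (-0.43 ± 0.24, edgeR p.adjust = 0.467). SPRY4 (-0.29 ± 0.24, edgeR p.adjust = 0.715), EGR1 (-0.43 ± 0.26, edgeR p.adjust = 0.533), PHLDA1 (-0.36 ± 0.22, edgeR p.adjust = 0.530) and FOSL1 (-0.32 ± 0.24, edgeR p.adjust = 0.661) likewise missed the threshold. These intervals are wide, and a fall like that of SPRY2 lies within 2 SE of the DUSP6 and SPRY4 estimates. None of the 6 genes of the EGR and NAB list, the 8 of the AP-1 family, the 3 NR4A receptors and the 12 of the MYC network passed the test in EGF+Cet against EGF by edgeR. Of all genes tested 2.97% fell and 1.02% rose, so that a count of none in lists this small lies near these shares.

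**Figure D2:**
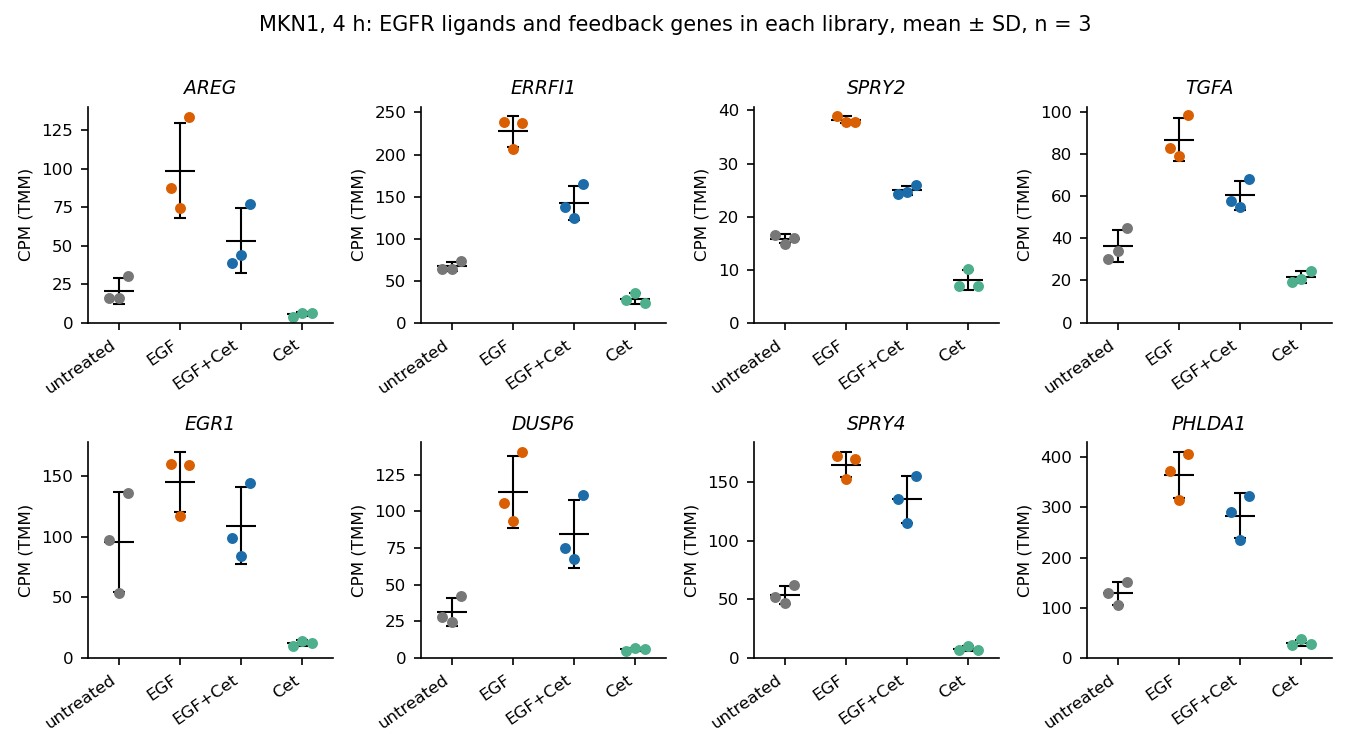
Level in CPM (TMM-scaled, linear axis from 0) of EGFR ligands and feedback genes in each MKN1 library at 4 h, with mean ± SD (n = 3). AREG, ERRFI1, SPRY2 and TGFA (top row) passed the test in EGF+Cet against EGF, whereas EGR1, DUSP6, SPRY4 and PHLDA1 (bottom row) did not, and in the bottom row the Cet libraries lie far below the untreated ones.

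The 9 regulated rises were of low genes. They had mean levels of 0.106 to 0.931 CPM in EGF+Cet, and none passed the level set for named genes. Of the 13 genes tested of the BMP list, 3 rose by p.adjust without reaching the fold limit: BMP4, a BMP ligand (from 53.6, 69.2 and 53.5 CPM to 93.9, 113 and 79.4 CPM, log2FC 0.70 ± 0.08, edgeR p.adjust = 9.73e-08), SMAD6, an inhibitor of BMP signalling (from 25.2, 22.5 and 26.1 CPM to 39.8, 34.0 and 34.8 CPM, 0.56 ± 0.09), and ID1, a BMP target (from 111, 122 and 131 CPM to 148, 182 and 175 CPM, 0.46 ± 0.12). EGF had lowered all 3, and the EGF and EGF+Cet libraries did not overlap. ID1 was past p.adjust in 2 of 9 fits that left out a replicate or a library, and BMP4 and SMAD6 in all 9. In the same list GREM1, a BMP antagonist (-0.63), and BMP2 (-0.56) fell. Over all genes tested 1.02% rose and 2.97% fell. Single genes of other lists rose as well, namely AJUBA (0.84), ELF3 (0.48), TXNIP (0.46), CDKN2C (0.39) and the tensin TNS3 (0.31), all of them lower with EGF than untreated. TXNIP was past p.adjust in 2 of the 9 fits that left out a replicate or a library.

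Over the 42 gene lists, 413 of 458 genes were tested, 32 were at 0 and 13 were below the filter on low counts. Of the 413, 59 fell and 9 rose by p.adjust and 8 were regulated, against 2.97%, 1.02% and 0.328% of all genes tested. In 16 lists no gene passed the test, among them the 23 S phase genes (median log2FC -0.018), the 19 ribosome biogenesis genes (-0.078) and the epithelial, fibroblast, leukocyte and endothelial markers. Of the squamous markers KRT6A fell, from 102, 38.1 and 53.0 CPM to 77.2, 27.2 and 40.4 CPM. KRT6A was past p.adjust in 4 of 9 fits that left out a replicate or a library. In bulk samples fewer cells of a type and less RNA per cell cannot be told apart. Without the replicate block 15 of the 68 list genes were past p.adjust, and 32 of the 68 were past it in all 9 fits that left out a replicate or a library.

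**Figure D3:**
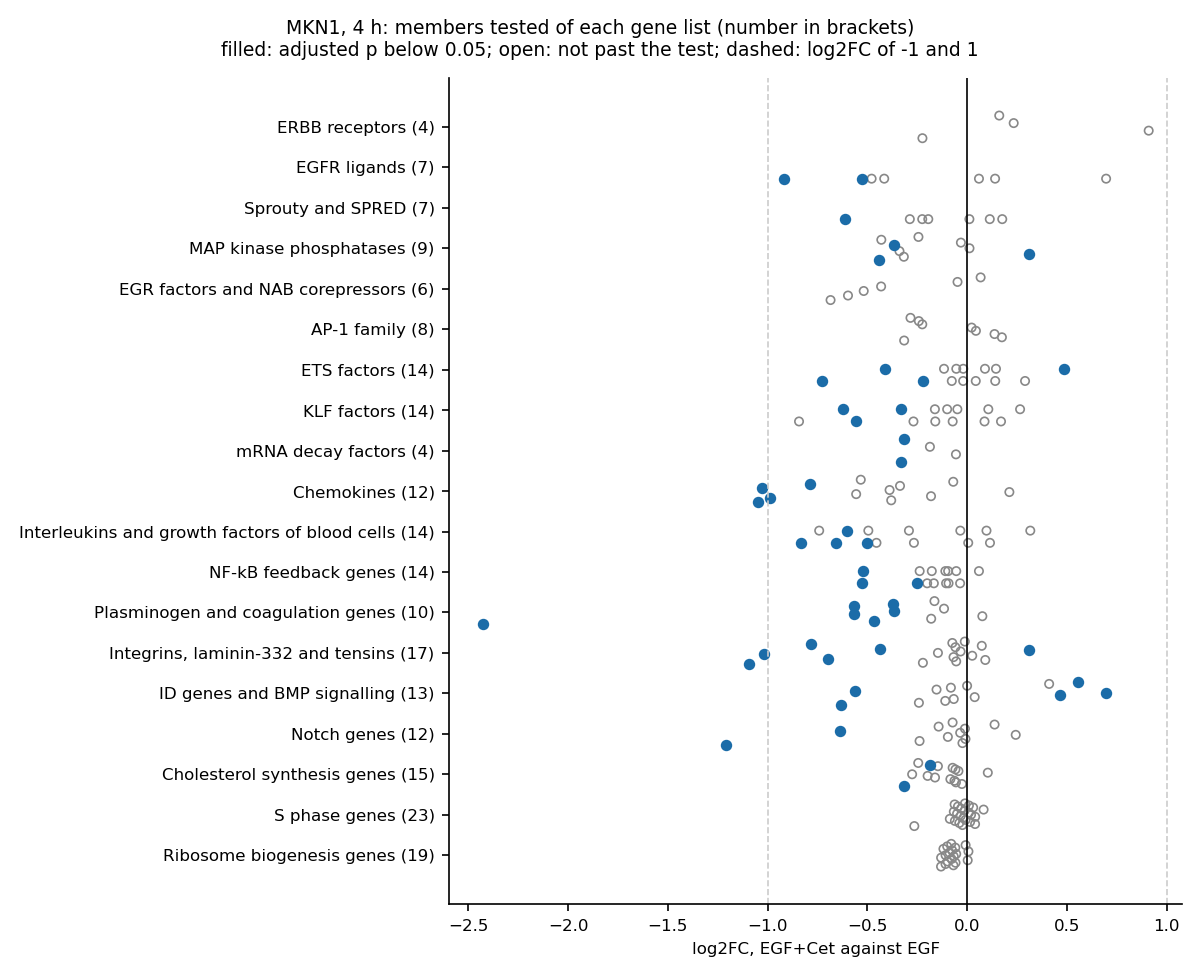
Log2FC in EGF+Cet against EGF (MKN1, 4 h) of each tested member of 19 gene lists, with the number tested in brackets. Filled points passed p.adjust, open points did not, and dashed lines mark -1 and 1. SERPINB2 at -2.43 is the lowest point, and the S phase and ribosome biogenesis lists have open points only, close to 0.

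How much of the EGF response was left with cetuximab was described on the genes regulated by EGF. EGF against untreated gave 306 genes regulated higher and 86 lower (1.98% of genes tested, 247 and 159 when scaled by library size alone, which shifts the median log2FC by -0.11). Of the 306 genes, 49 were regulated lower in EGF+Cet against EGF, 176 fell by p.adjust, 302 had a negative log2FC, and none rose. Their median log2FC was 1.37 in EGF against untreated and 0.73 in EGF+Cet against untreated, and in EGF+Cet against EGF it was -0.66. Of the 86 genes lowered by EGF, 2 were regulated higher in EGF+Cet against EGF, 15 rose by p.adjust and 85 had a positive log2FC. Since EGF libraries enter both comparisons, these counts describe the genes and test nothing.

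The same was described on genes chosen without the 4 h libraries. EGF against untreated at 24 h gave 451 genes regulated higher and 1405 lower (9.37%). At 4 h, of the 451 genes raised at 24 h, 134 fell in EGF+Cet against EGF by p.adjust, 27 were regulated lower, none rose, and 396 had a negative log2FC with a median of -0.30. Over all genes tested 50.4% had a negative log2FC, 2.97% fell by p.adjust, 0.283% were regulated lower and 1.02% rose by p.adjust. Of the 1405 genes lowered at 24 h, 28 rose by p.adjust, 2 fell, and the median was 0.17.

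Cetuximab left most of the blunted genes above the untreated level. In EGF+Cet against untreated, 45 genes were regulated higher and 6 lower (0.257%). Of the 176 EGF-raised genes that fell, 130 were still higher than in untreated cells by p.adjust, such as AKAP12 (0.64), LAMA3 (1.00), AREG (1.36) and CSF2 (1.91). The other 46 were not past the test against untreated, which includes NRARP and CXCL5 (0.13, edgeR p.adjust = 0.955). No EGF-raised gene was lower in EGF+Cet than in untreated cells by p.adjust. The untreated libraries also served to choose the EGF-raised genes, so that these counts describe the genes and test nothing.

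The effect of EGF in the presence of the antibody was also measured against Cet alone, with 324 genes regulated higher and 222 lower (2.76%, or 246 and 393 when scaled by library size alone, which shifts the median by -0.12). Cetuximab without added EGF gave 43 genes regulated higher and 73 lower against untreated (0.585%, or 60 and 57 when scaled by library size alone). The difference of the EGF effects with and without cetuximab was tested as an interaction, with the contrast of EGF+Cet against Cet minus EGF against untreated, which share no library. It passed in 53 genes (0.267%), 36 above 0 and 17 below 0. Without the replicate block 10 genes passed, 7 above and 3 below 0, and without replicate 1 and without replicate 3 the number was 19 and 23.

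In the 36 genes above 0 the signed EGF effect was higher with cetuximab. EGF had raised 22 of them without cetuximab and lowered 3 by p.adjust, as in ID1, whose EGF effect was -0.52 without and 0.55 with cetuximab, and 35 of the 36 were lower in Cet than in untreated cells by p.adjust (median log2FC -1.37). In EGF+Cet against EGF 33 of the 36 were not past the test (median -0.07). The libraries of these comparisons also enter the interaction, so that these counts describe the genes and test nothing. For SPRY4 the EGF effect was 1.62 without and 4.11 with cetuximab, an interaction of 2.49 ± 0.37 (edgeR p.adjust = 0.000149). SPRY4 went from 52.3, 46.7 and 62.0 CPM untreated to 6.82, 10.1 and 6.65 CPM with Cet, and EGF+Cet held 136, 115 and 155 CPM. EGR1 (2.50), DUSP6 (1.999), TNS4 (1.88), PHLDA1 (1.72), DUSP4 (1.54), FOSL1 (1.45), the BMP antagonist NOG (1.39), EREG (1.39), MYC (1.05) and CXCL8 (1.03) had interactions in the same direction. Of these CXCL8 fell in EGF+Cet against EGF. Without the replicate block the interaction was past p.adjust for SPRY4, EGR1, NOG and ID1, and not for the other genes named in this paragraph.

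In the 17 genes below 0 the signed EGF effect was lower with cetuximab, and 13 of them fell in EGF+Cet against EGF. In EGF+Cet against Cet 5 of the 17 were higher and 6 lower by p.adjust. These libraries enter the interaction as well, so that the counts are a description and no test. NRARP had an EGF effect of 1.19 without and -0.15 with cetuximab (interaction -1.34, edgeR p.adjust = 8.48e-07). SERPINB2 had 3.26 without and 1.86 with cetuximab (-1.40, edgeR p.adjust = 0.0230), and DCLK1 1.79 and 0.78 (-1.01, edgeR p.adjust = 0.00207). DSC2, a desmosomal cadherin (-1.20), GEM, a small GTPase (-1.12), and MAST4, a kinase (-1.46), lie outside the rule for named genes and were picked after their values were seen. Without the replicate block the interaction was past p.adjust for NRARP, GEM and MAST4, and not for SERPINB2, DCLK1 and DSC2. For LAMA3 (-0.30, edgeR p.adjust = 0.511), CCL2 (0.03, edgeR p.adjust = 1.00) and ITGA2 (0.13, edgeR p.adjust = 1.00) the interaction was not past the test, and Cet alone lowered them against untreated by 0.79, 1.06 and 1.14 on the log2 scale.

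**Figure D4:**
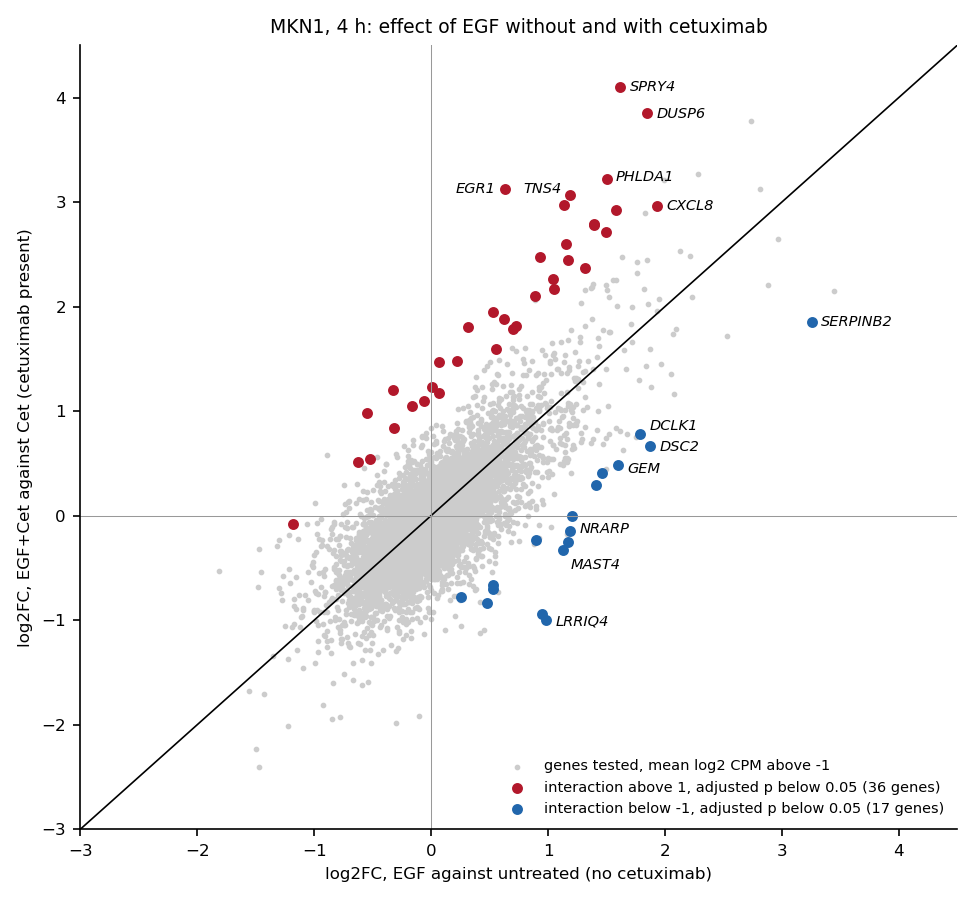
Log2FC of EGF+Cet against Cet (vertical) plotted on log2FC of EGF against untreated (horizontal) for MKN1 genes at 4 h with a mean log2 CPM above -1 or a called interaction, with the line of equal effects. The 36 genes in red, led by SPRY4 and DUSP6, lie above the line and the 17 in blue, with SERPINB2 and NRARP, below it.

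At 24 h, in other libraries of MKN1, EGF+Cet against EGF gave 45 genes regulated higher and 57 lower (0.515%). Of the 56 genes regulated lower at 4 h, 15 were regulated lower at 24 h, 21 fell by p.adjust and 48 had a negative log2FC (median -0.77). SERPINB2 (-2.02), ESM1 (-1.93), DCLK1 (-1.48), LAMA3 (-1.37) and AKAP12 (-1.10) were again regulated lower. The difference between time points passed in 11 genes (0.0555%), all above 0, including NRARP, whose log2FC went from -1.21 at 4 h to -0.11 at 24 h (difference 1.10, edgeR p.adjust = 4.99e-05), and ID3, which went from 0.41 to 1.52 (1.11, edgeR p.adjust = 0.00447). This count was 0 by edgeR without the replicate block and 19 by DESeq2, and without replicates 1, 2 and 3 it was 4, 1 and 8. For NRARP, EGF against untreated was at 1.19 at 4 h and at 0.07 at 24 h (edgeR p.adjust = 0.553 at 24 h). DUSP6 was at -1.03 and SPRY4 at -1.01 at 24 h, both past the test there, and for neither was the difference between time points past it (edgeR p.adjust = 0.709 and 0.603).

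In Hs746T at 4 h the same comparison regulated 0 of 18667 genes (0%) by edgeR and 0 by DESeq2, with 984 genes at an unadjusted p below 0.05 and 1, FBXO32 (named after its value was seen), past p.adjust. EGF against untreated regulated 0 genes in Hs746T as well (0%), with 2902 at an unadjusted p below 0.05 and 3 past p.adjust in edgeR. AKAP12 stood in Hs746T at 1042, 533 and 508 CPM untreated, at 1083, 501 and 526 CPM with EGF and at 977, 495 and 484 CPM with EGF+Cet, with replicate 1 apart from the others in every group. Of the 56 genes regulated lower in MKN1, 45 were tested in Hs746T and none passed the test (median log2FC -0.06).

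The Hs746T library of EGF+Cet replicate 1 stood apart from the others. It held 26427 genes with a count, against 22974 to 24812 in the other 11 Hs746T libraries of untreated, EGF, EGF+Cet and Cet cells at 4 h. The integrin gene ITGB4 stood at 15.5 CPM and the protease gene ST14 at 12.8 CPM in it, against 0.290 to 1.65 CPM and 0.878 to 2.01 CPM in the other 11 (both named after their values were seen), while the 8 epithelial markers summed to 894 CPM, within their range of 824 to 1039 CPM. The difference between the lines (MKN1 minus Hs746T) passed in 94 genes (0.442%), 91 of them below 0. Of these 91 genes 36 had fallen in MKN1 by p.adjust, and 38 of the 72 tested in Hs746T alone had a log2FC above 1 there. Without the library the difference passed in 25 genes, 23 below 0, and 21 of these were among the 56 genes regulated lower in MKN1, against 24 with it. Without replicate 1 of both lines 18 genes passed, without replicate 2 it was 203, and without the replicate block 2.

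AKAP12 differed between the lines by -1.34 with the library and by -1.34 without it (edgeR p.adjust = 1.53e-08 without). LAMA3 differed by -1.34 and -1.18 (edgeR p.adjust = 2.65e-08 without), DCLK1 by -1.28 and -1.17 (edgeR p.adjust = 0.000542 without) and BMP6 by -1.45 and -1.24 (edgeR p.adjust = 0.0121 without). LYPD3 was at -1.64 with the library and not past the test at -1.26 without it (edgeR p.adjust = 0.211). None of these 5 genes was past p.adjust in the fit without the replicate block (edgeR p.adjust = 0.153 to 0.953).

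**Figure D5:**
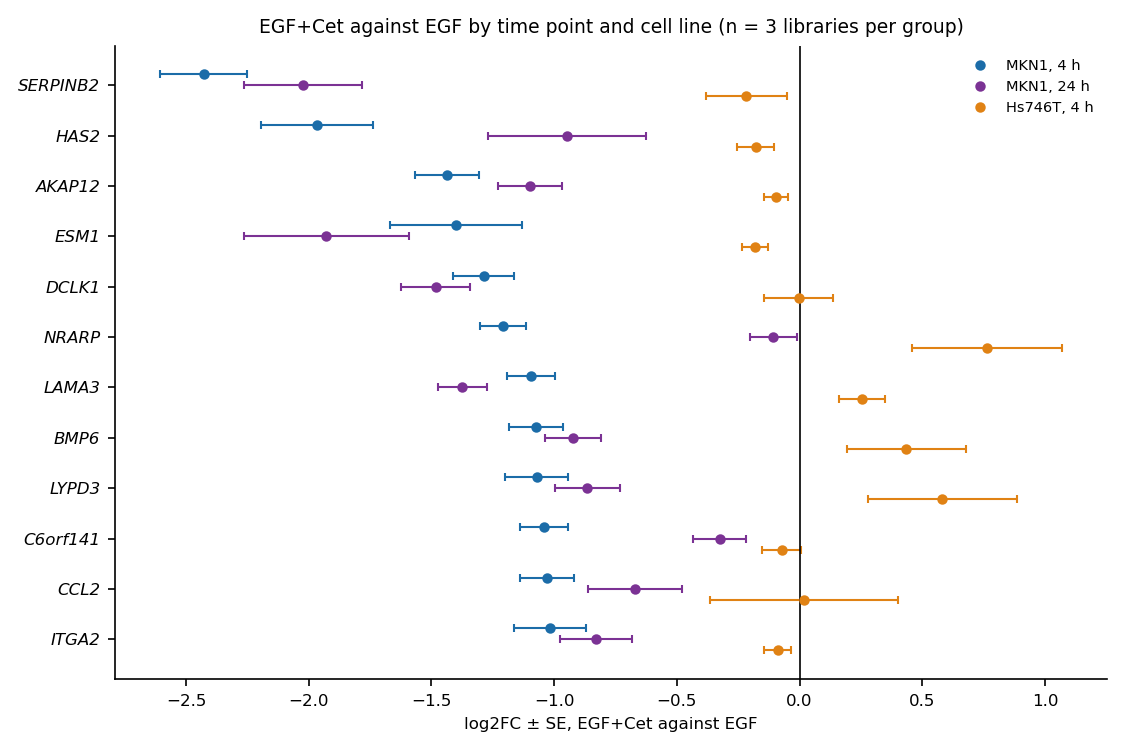
Log2FC ± SE in EGF+Cet against EGF of 12 genes in MKN1 at 4 h, MKN1 at 24 h and Hs746T at 4 h (n = 3 libraries per group). The MKN1 points at 4 h lie between -2.43 and -1.02, the Hs746T points between -0.22 and 0.76, and the MKN1 points at 24 h on the negative side, NRARP closest to 0.

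Genes at the edges of the rule close the description. Just inside the fold limit were ITGA2, TMC8 and NTF4 (log2FC -1.018, -1.006 and -1.004) and just outside it AC148477.1, TRIML2 and IGSF10 (-0.997, -0.996 and -0.995). Of the EGF responses not past the test in EGF+Cet against EGF, the 5 named by the rule were TCHHL1, RGS18, AC004982.1, IL33 and AL133304.2, all at low levels. IL33, a cytokine of epithelial cells, stood at 0.518, 0.302 and 0.329 CPM with EGF and at 0.233, 0.503 and 0.151 CPM with EGF+Cet (-0.45 ± 0.42, edgeR p.adjust = 0.759). Of the genes regulated in EGF+Cet against EGF with an EGF effect under 0.5, 2 were found, the pseudogene AC027644.1 (1.03, at 0.537 to 1.05 CPM in EGF+Cet) and AL451074.1, whose EGF+Cet libraries held at most 0.0432 CPM, at or below the 3 counts taken as the floor (0.0432 to 0.0733 CPM), so that no fold is given.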

How the data were processed

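Poly(A) RNA of 132 cell line samples was sequenced as directional paired-end libraries. Per the labels, the authors trimmed reads with Trim Galore and aligned them with STAR to hg38, and the deposited values are raw counts per gene. The counting tool and its strand setting are not given in the sources used here. Gene symbols came from GENCODE 29, and 8404 of 65217 identifiers, holding 0.0374% of MKN1 counts, had no match. Only the 42 MKN1 and 42 Hs746T libraries were fitted.

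Counts were tested with edgeR 4.0.16 in R 4.3.3 (quasi-likelihood test, TMM, filterByExpr at its count limit of 10 and total limit of 15), with a mean per condition and the replicate number as a block within each time point. SE is the absolute log2FC divided by the square root of F. P-values were Benjamini-Hochberg adjusted over all genes tested. The numbers were taken to pair the libraries on the following ground. Deviations of same-numbered libraries from their group means correlated in all 18 pairs of libraries (r = 0.257 to 0.420). Other numbers gave a mean of -0.164, which is no separate evidence, since the deviations sum to 0 within each group. No replicate pair agreed within counting noise. DESeq2 1.42.0, another scaling, other filters and left-out libraries were tried, and the fits were tested on simulated data. Named genes are the members of 42 lists and, by rule, the largest regulated changes of protein-coding genes with a mean log2 CPM above 1 in one direction in all 3 pairs, EGF responses not past the test and regulated genes with a small EGF response. Values of a few list genes are not reported here. Members and lists were chosen with earlier results of these data known.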

Additional observations from a re-analysis of the deposited data

Results flagged for a closer look

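The results below differed between conditions, time points or lines by a test of the difference itself, edgeR's quasi-likelihood test with p.adjust below 0.05 and a log2 difference above 1 or below -1. Outlying samples within groups of 3 libraries were not flagged by a rule. The Hs746T EGF+Cet library of replicate 1 was seen to stand apart and was left out in added fits.

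The EGF effect with cetuximab (EGF+Cet against Cet) differed from that without (EGF against untreated) in 53 genes. Among named genes the signed effect was higher with cetuximab for feedback genes and ERK targets, by a log2 difference of 2.50 for EGR1, 2.49 for SPRY4, 1.999 for DUSP6, 1.88 for TNS4, 1.72 for PHLDA1, 1.54 for DUSP4, 1.45 for FOSL1, 1.22 for SPRY1, 1.22 for IER3, 1.16 for ETV5, 1.12 for MAFF, 1.09 for EPHA2 and 1.05 for MYC. It was higher for secreted factors and their regulators as well, by 1.39 for EREG, 1.39 for NOG, 1.34 for CXCL1 and 1.03 for CXCL8, and by 1.09 for tissue factor (F3). The values of the other genes in this direction were 1.49 for ANKRD1, 1.26 for CTGF, 1.13 for SMAD6 and 1.07 for ID1, the last 2 lowered by EGF without cetuximab and raised with it. It was lower with cetuximab for SERPINB2 (-1.40), NRARP (-1.34) and DCLK1 (-1.01). Of the genes given here, EGR1, SPRY4, NOG, SMAD6, ID1 and NRARP were past p.adjust for this difference without the replicate block. The others were not, such as DUSP6 (edgeR p.adjust = 0.206), MYC (0.490) and CXCL8 (0.878).

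Between time points EGF+Cet against EGF differed in 11 genes, with a log2 difference of 24 h minus 4 h of 1.11 for ID3 and 1.10 for NRARP. For NRARP, EGF against untreated was at 0.07 at 24 h (edgeR p.adjust = 0.553). Between lines EGF+Cet against EGF differed in 94 genes, and in 25 without the Hs746T EGF+Cet library of replicate 1, which stood apart. For named genes MKN1 minus Hs746T was -1.97 for NRARP, -1.64 for LYPD3, -1.45 for BMP6, -1.34 for LAMA3, -1.34 for AKAP12, -1.28 for DCLK1 and -1.22 for ESM1.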

How the results depend on the processing

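The count of 65 genes regulated in EGF+Cet against EGF was 55 to 83 with other samples in the fit, DESeq2, scaling by library size or no filter on low counts. Without the replicate block it was 25, all of them among the 65, and with at least 10 counts in every library 23. Leaving out a replicate number or a library gave 41 to 69, with 41 without replicate 1. Without the fold limit it was 791.

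Without the replicate block, EGF+Cet against untreated gave 23 genes, the interaction 10, Cet against untreated 66, the time difference 0, the line difference 2 and the blunted EGF responses 21 (of 51). With at least 10 counts in every library, EGF against untreated gave 210 genes, EGF+Cet against untreated 28, EGF+Cet against Cet 298, Cet against untreated 67, the line difference 25 and the blunted responses 21. Without the fold limit the counts were 3368 for EGF against untreated, 779 for EGF+Cet against untreated, 4574 for EGF+Cet against Cet, 1487 for Cet against untreated, 272 for the interaction, 79 for time, 336 for line, 1 for Hs746T and 752 for the blunted responses. The time difference was 19 by DESeq2 and 17 without a filter, and Hs746T gave 91 genes without a filter, all higher. The cause of these shifts was not tested. The alternatives for Cet against untreated were chosen after seeing the data, as was leaving out the Hs746T EGF+Cet library of replicate 1, which gave 25 genes for line and 0 for Hs746T.

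Leaving out replicates gave 297 to 397 genes for EGF against untreated, 30 to 68 for EGF+Cet against untreated (30 without replicate 1), 433 to 540 for EGF+Cet against Cet, 19 to 60 for the interaction, 34 to 58 for the blunted responses, 1 to 8 for time, 18 to 203 for line and 0 to 24 for Hs746T (24 without replicate 2).

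None of the 76 named genes past p.adjust changed direction in a setting tried; the named genes not past it were not followed. Of the 76, 20 stayed past it without the block. Of the 65 regulated genes, 32 were past p.adjust in all 9 fits that left out a replicate or a library. Depth limits the low genes: 3 counts are 0.0432 to 0.0733 CPM in the compared libraries, and the 9 regulated rises averaged at most 0.931 CPM.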
